A study of Homo sapiens with 18 samples.

Results

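The collagen genes of HCC4006 cells are described here, taken as every gene whose symbol reads COL, a number, A and a number and that a feature naming 1 gene measured on the array. The rule gave 41 genes of the 22465 that such features name, on 48 features. Where a gene had several features, the one with the highest mean over the 18 arrays was kept (COL11A2 with 7 features, COL27A1 with 2). HCC4006 is an established cell line from a human lung adenocarcinoma that carries mutant EGFR, and every culture received siRNA. The groups were N3 (Notch3 siRNA), N1 (Notch1 siRNA) and NTC (non-targeting control siRNA) in 0.1 µM erlotinib, an EGFR tyrosine kinase inhibitor, and N3, N1 and NTC in DMSO, the vehicle, with 3 arrays each. Sources differ on how long treatment lasted: 5 days in the sample labels, 6 days in the published protocol. The Methods list 1 siRNA per Notch gene, and only 1 cell line was used. The N3 erlotinib arrays are numbered 4 to 6 and all others 1 to 3. A separate handling of that group thus cannot be told apart from the knockdown in comparisons between siRNAs that use it. Nor can it be told apart from erlotinib in N3 cells, or from a difference in response between N3 and NTC cells. No source says that the arrays of a group came from separate cultures, so p-values measure only the spread between arrays, which may be technical.

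Collagens are secreted or membrane-bound proteins whose chains wind into a triple helix. Collagen IV builds the sheet-like network of basement membranes, on which epithelia sit. Fibrillar collagens form the rope-like fibrils of connective tissue, and the fibril-associated collagens with interrupted helices (FACIT) sit on their surface. Fibroblasts make most fibrillar collagen in tissue, while epithelial cells contribute basement membrane chains.

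Levels are log2 values of the robust multi-array average (RMA), and a feature was tested if it lay above its array's median on at least 3 arrays. Of the 41 genes, 32 passed, and 9 lay below the median on every array, with levels of 2.9 to 4.88. Brightness differs between features for reasons other than transcript amount, so levels are compared only within a gene. All 10 fibrillar genes passed (COL1A1, COL1A2, COL2A1, COL5A1, COL5A2, COL5A3, COL11A1, COL11A2, COL24A1 and COL27A1). Of the 6 collagen IV genes, COL4A1 to COL4A5 passed and COL4A6 did not. Of 10 FACIT genes, COL9A2, COL9A3, COL12A1, COL16A1, COL20A1, COL21A1 and COL22A1 passed, and COL9A1, COL14A1 and COL19A1 did not. COL6A1 and COL6A2 of the beaded filaments passed, but COL6A3, COL6A5 and COL6A6 did not. COL7A1 of the anchoring fibrils, the membrane-spanning COL13A1, COL23A1 and COL25A1, the multiplexins COL15A1 and COL18A1, and COL28A1 passed. Of the short-chain network genes COL8A2 passed, while COL8A1 and COL10A1 did not. Near the limit, COL4A5 and COL11A1 exceeded the median on 8 arrays each, COL25A1 on 16 and COL24A1 on 17. COL4A5 exceeded it on no N1 DMSO or NTC DMSO array, so it passed through the groups where it was higher. The features of COL4A1, COL4A2, COL5A1, COL18A1 and COL23A1 lay above the 75th percentile on all 18 arrays.

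The label of a lung epithelial line was checked on marker genes. All 8 epithelial markers exceeded the median on every array. Of 8 fibroblast markers, PDGFRB, THY1, ACTA2 and TWIST2 exceeded it on all 18 arrays and PDGFRA, DCN, LUM and FAP on none, and the sum of the 8 levels was 33.48 to 35.67 over all arrays with overlapping ranges between groups. The sum of the 8 epithelial levels was 72.54 to 73.33 in N3 erlotinib, 75.24 to 75.62 in N1 erlotinib and 74.1 to 74.63 in NTC erlotinib, against 75.24 to 75.7 in N3 DMSO, 75.73 to 75.94 in N1 DMSO and 75.88 to 76.2 in NTC DMSO. It was thus lowest in N3 erlotinib. The sum of 3 RNA load genes (ACTB, GAPDH and TBP) was also lowest there, 30.04 to 30.3, against 30.54 to 31.38 in all other groups. Of 4 immune markers, PTPRC and CD3E exceeded the median on no array, CD14 on 9 and CD68 on all 18, and their sum was 19.85 to 20.32 in the erlotinib groups, against 20.6 to 22.03 in the DMSO groups. Of 5 endothelial markers, VWF and KDR exceeded the median on all 18 arrays, CDH5 on 15, and PECAM1 and TEK on none. Their sum was 22.02 to 23.01 in the erlotinib groups and 22.42 to 23.59 in the DMSO groups. The part of these lists in the collagen results was not tested. The targeted NOTCH3 averaged 6.40 ± 0.12 in N3 erlotinib, against 6.97 ± 0.06 in NTC erlotinib, and 6.40 ± 0.06 in N3 DMSO, against 6.97 ± 0.05 in NTC DMSO (SD, n = 3 arrays each). The targeted NOTCH1 averaged 6.58 ± 0.04 in N1 erlotinib, against 6.66 ± 0.01 in NTC erlotinib (adjusted p = 0.214 from limma), and 6.54 ± 0.08 in N1 DMSO, against 6.84 ± 0.06 in NTC DMSO (adjusted p = 0.000291 from limma). These are RNA values. For protein, the published study reports from Western blots that both knockdowns were specific and looked complete. With N1 siRNA, NOTCH3 averaged 7.22 ± 0.09 in erlotinib, higher than with NTC siRNA (adjusted p = 0.00818 from limma). In N1 DMSO it averaged 6.87 ± 0.07, a difference from NTC DMSO that was not called (adjusted p = 0.248 from limma).

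The collagen IV genes are arranged in head-to-head pairs that share the DNA between their starts. The stretches between the pairs that responded are shown because both partners of each pair moved together below. They are from RefSeq (GRCh38.p14), which held a promoter window for 30 of the 41 genes, and are given 5′ to 3′ on the plus strand. COL4A1 lies to the left on the minus strand and COL4A2 to the right on the plus strand at chr13:110307158-110307283, 126 bases. COL4A4 lies to the left on the minus strand and COL4A3 to the right on the plus strand at chr2:227164489-227164623, 135 bases. Capitals mark GC boxes (GGGCGG or its reverse CCGCCC) and CCAAT boxes (CCAAT or ATTGG).
COL4A1 to COL4A2: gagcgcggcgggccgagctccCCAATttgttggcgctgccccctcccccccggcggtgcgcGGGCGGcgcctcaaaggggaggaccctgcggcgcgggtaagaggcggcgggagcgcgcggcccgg
COL4A4 to COL4A3: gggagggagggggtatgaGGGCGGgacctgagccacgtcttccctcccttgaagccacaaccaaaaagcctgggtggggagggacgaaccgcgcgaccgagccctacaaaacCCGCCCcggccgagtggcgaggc
The COL4A1 to COL4A2 stretch was 80.2% G and C, and the COL4A4 to COL4A3 stretch was 68.2%. The median over upstream windows of the same length was 60.3% for 126 bases. The first stretch held 1 GC box and 1 CCAAT box, and the second held 2 GC boxes and no CCAAT box. GC boxes occurred in 34.6% of 34757 distinct windows of 126 bases, and CCAAT boxes in 21.1%. A TATA box (TATAAA or TTTATA) was in neither stretch and in 5.89% of such windows. The core letters that TCF/LEF factors recognize (CTTTGA or TCAAAG) occurred 1 time in the COL4A1 to COL4A2 stretch, not in the other, and in 5.33% of windows. The core of the Notch effector RBPJ (TGGGAA or TTCCCA) was in neither, against 10.7% of windows. These matches overlapped no other motif searched.

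Erlotinib raised the 4 collagen IV genes COL4A1 to COL4A4 by 2.16-fold to 4.05-fold in cells with each siRNA. In bulk RNA, a change in the share of cells that express a gene and a change in RNA per cell cannot be told apart. COL12A1, a FACIT collagen on fibril surfaces, rose by 2.62-fold to 3.41-fold, and COL1A2 and COL5A1 rose less. COL5A2, which encodes a partner chain of COL5A1 in collagen V, fell. In N3 cells 12 of the 32 tested genes rose and 1 fell, in N1 cells 21 rose and 1 fell, and in NTC cells 11 rose and 1 fell (adjusted p under 0.05 over all 16335 genes tested). The rises with each siRNA include COL4A5, which passed the filter through the groups where it was higher, so its part in the counts is a description only. Among all genes, 24.9% rose and 27.7% fell in N3 cells, 31.7% rose and 23.7% fell in N1 cells, and 24.6% rose and 25.4% fell in NTC cells. The comparisons share no arrays, and 11 collagen genes rose and 1 fell in all 3. The share of all genes that did so was not counted, so this overlap is a description only. The median log2 fold change of the 32 genes was 0.07 in N3 cells (all genes 0.01), 0.19 in N1 cells (all genes 0.08) and 0.02 in NTC cells (all genes -0.02). With each array centered on its median, which moved the median of all genes by -0.10 in N3 cells, -0.09 in N1 cells and -0.05 in NTC cells, 11 collagen genes rose in N1 cells instead of 21. At the thresholds of the study's Methods (p under 5e-04 before adjustment, with at least a 2-fold change), COL4A1 to COL4A4 and COL12A1 rose with each siRNA, and COL1A2 rose as well in NTC cells. That made 5 genes in N3 cells (1.32% of all genes rose there), 5 in N1 cells (0.998%) and 6 in NTC cells (1.35%).

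Collagen IV held the largest response in N1 and NTC cells, that of COL4A3, while COL12A1 had the largest in N3 cells. COL4A1 and COL4A2, the chains of the collagen IV found in nearly all basement membranes, form 1 pair. COL4A1 stood at 8.96, 8.99 and 9.02 in N3 erlotinib, 9.75, 9.79 and 9.79 in N1 erlotinib, and 9.82, 9.74 and 9.70 in NTC erlotinib. In DMSO it stood at 7.40, 7.41 and 7.36 in N3 cells, 8.24, 8.28 and 8.23 in N1 cells, and 8.16, 8.10 and 8.31 in NTC cells. Every erlotinib array was above every DMSO array, and within each treatment the N3 arrays were below all others, while those of N1 and NTC cells overlapped. Its log2 fold change in erlotinib was 1.60 in N3 cells, 1.53 in N1 cells and 1.56 in NTC cells (standard error 0.05 each; adjusted p = 2.73e-14, 8.29e-14 and 5.43e-14 from limma).

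With N3 siRNA, COL4A1 was lower by 0.76 than with NTC siRNA in erlotinib and by 0.80 in DMSO on the log2 scale, 1.70-fold and 1.74-fold. Its fall in DMSO was number 7 from the bottom of the 16335 genes and that in erlotinib number 39. The standard error was 0.05 in both (adjusted p = 1.24e-08 in erlotinib and 9.19e-09 in DMSO from limma). Its erlotinib response in N3 cells differed from that in NTC cells by 0.04 (standard error 0.07, adjusted p = 0.845 from limma). The level of COL4A1 was lower with N3 siRNA in either treatment, and no difference in its fold response was detected.

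COL4A2 gave a similar order of groups. It measured 8.75, 8.82 and 8.88 in N3 erlotinib, 9.33, 9.37 and 9.36 in N1 erlotinib, and 9.50, 9.43 and 9.42 in NTC erlotinib. The DMSO arrays gave 7.70, 7.71 and 7.70 in N3 cells, 8.20, 8.24 and 8.19 in N1 cells, and 8.18, 8.15 and 8.29 in NTC cells. The N3 arrays again lay below all others of the same treatment. The response to erlotinib was 1.11 in N3 cells, 1.14 in N1 cells and 1.24 in NTC cells (log2 fold change, standard error 0.04; highest adjusted p = 8.49e-13 from limma). With N3 siRNA it was lower than with NTC siRNA by 0.63 in erlotinib (adjusted p = 2.99e-08 from limma) and by 0.50 in DMSO (adjusted p = 4.67e-07).

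COL4A3 and COL4A4, chains of the collagen IV of kidney filtration and alveolar basement membranes, form another pair. COL4A3 measured 7.42, 7.53 and 7.43 in N3 erlotinib, 7.62, 7.62 and 7.69 in N1 erlotinib, and 8.07, 7.82 and 7.94 in NTC erlotinib. In the vehicle it measured 5.72, 5.76 and 5.78 in N3 cells, 5.87, 5.91 and 5.93 in N1 cells, and 5.89, 5.95 and 5.94 in NTC cells. The 3 erlotinib groups did not overlap one another, with N3 lowest and NTC highest. Its response to erlotinib was 1.71 in N3 cells, 1.74 in N1 cells and 2.02 in NTC cells (log2 fold change, standard error 0.05; highest adjusted p = 5.34e-14 from limma), and in NTC cells it was number 16 from the top of all genes tested.

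The COL4A3 response was smaller than in NTC cells by 0.31 with N3 siRNA (adjusted p = 0.0190 from limma) and by 0.28 with N1 siRNA (adjusted p = 0.0245; standard error 0.07 for both). Within erlotinib its level was lower than in NTC cells by 0.48 with N3 siRNA (adjusted p = 5.72e-06 from limma) and by 0.30 with N1 siRNA (adjusted p = 0.000678). In DMSO it was lower by 0.17 with N3 siRNA (adjusted p = 0.0414 from limma), a call that was lost without any 1 of the 6 arrays compared. The smaller response with N3 siRNA was no longer called without N3 erlotinib replicate 4 (log2 difference between -0.37 and -0.25 over all settings). That with N1 siRNA was lost without replicate 1 or 2 of N1 erlotinib, 1 or 3 of NTC erlotinib, 2 or 3 of N1 DMSO, or 1 of NTC DMSO.

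COL4A4 measured 7.47, 7.54 and 7.52 in N3 erlotinib, 7.67, 7.67 and 7.65 in N1 erlotinib, and 8.02, 7.88 and 7.90 in NTC erlotinib. DMSO levels were 6.11, 6.15 and 6.15 in N3 cells, 6.28, 6.21 and 6.16 in N1 cells, and 6.35, 6.33 and 6.28 in NTC cells. Its erlotinib groups did not overlap and followed the same order as COL4A3. The response was 1.37 in N3 cells, 1.45 in N1 cells and 1.61 in NTC cells (log2 fold change, standard error 0.04; highest adjusted p = 4.85e-14 from limma). It was smaller with N3 siRNA by 0.24 (standard error 0.06, adjusted p = 0.0270 from limma), while the difference with N1 siRNA was -0.17 (adjusted p = 0.0743). The call with N3 siRNA was lost without N3 erlotinib replicate 4, NTC erlotinib replicate 1, replicate 2 or 3 of N3 DMSO, or replicate 2 or 3 of NTC DMSO.

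COL4A5 and COL4A6, the X-linked pair, stayed near background. COL4A5 averaged 5.04 ± 0.04 in N3 erlotinib, 4.97 ± 0.06 in N1 erlotinib and 4.95 ± 0.05 in NTC erlotinib, against 4.91 ± 0.05 in N3 DMSO, 4.79 ± 0.05 in N1 DMSO and 4.83 ± 0.05 in NTC DMSO (SD, n = 3). It was called higher in erlotinib with each siRNA, by 0.12 to 0.17 on the log2 scale, but it passed the filter through the erlotinib groups and N3 DMSO, so this count is a description only. COL4A6 stayed between 4.52 and 4.8 and was not tested.

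**Figure D1:**
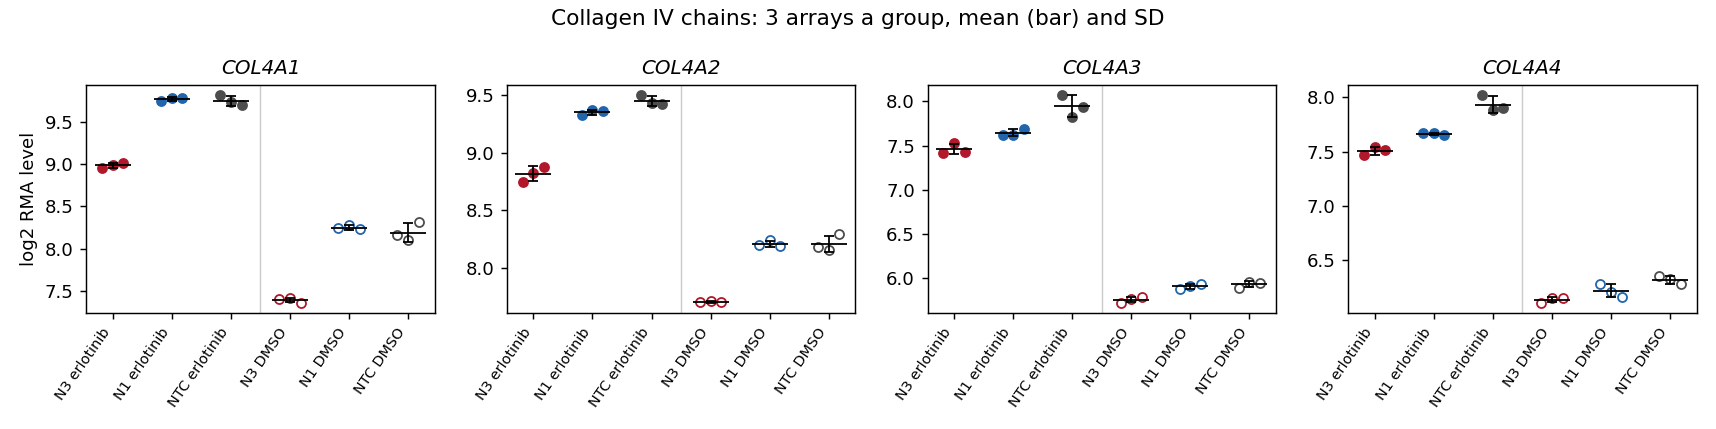
Log2 RMA levels of COL4A1, COL4A2, COL4A3 and COL4A4 on each array (points, filled for erlotinib and open for DMSO), with the group mean (bar) and SD over 3 arrays. All erlotinib arrays lie above all DMSO arrays, and the N3 arrays of COL4A1 (8.96 to 9.02 in erlotinib, 7.36 to 7.41 in DMSO) lie below the others of the same treatment.

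Among the 10 fibrillar genes, COL1A2, COL5A1 and COL24A1 rose and COL5A2 fell with each siRNA. COL1A2, a chain of collagen I, measured 6.85, 6.82 and 6.91 in N3 erlotinib, 6.68, 6.78 and 6.64 in N1 erlotinib, and 6.98, 7.02 and 6.94 in NTC erlotinib. On DMSO arrays it stood at 5.93, 5.91 and 5.94 in N3 cells, 6.10, 5.99 and 6.00 in N1 cells, and 6.11, 5.92 and 5.88 in NTC cells. In DMSO the NTC arrays overlapped those of both knockdowns, and in erlotinib the N1 arrays were lowest. COL1A2 rose by 0.93 in N3 cells, 0.67 in N1 cells and 1.01 in NTC cells (log2, standard error 0.06; highest adjusted p = 2.55e-08 from limma). The response was smaller by 0.34 in N1 cells than in NTC cells (standard error 0.08, adjusted p = 0.0122 from limma). COL1A1, which supplies the other chain of collagen I, rose by 0.19 in N1 cells (adjusted p = 0.00943 from limma), and its 0.14 in N3 cells and 0.01 in NTC cells were not called.

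COL5A1 and COL5A2, chains of the collagen V that limits fibril width, went opposite ways. COL5A1 measured 7.44, 7.50 and 7.54 in N3 erlotinib, 7.76, 7.72 and 7.61 in N1 erlotinib, and 7.73, 7.72 and 7.75 in NTC erlotinib. In DMSO it measured 6.87, 6.89 and 6.91 in N3 cells, 7.03, 6.93 and 6.89 in N1 cells, and 7.06, 6.96 and 6.96 in NTC cells. It rose by 0.60 in N3 cells, 0.75 in N1 cells and 0.74 in NTC cells (log2, standard error 0.05; highest adjusted p = 1.04e-08 from limma), and in erlotinib it was lower by 0.24 with N3 than with NTC siRNA (adjusted p = 0.00181).

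COL5A2 measured 5.30, 5.18 and 5.30 in N3 erlotinib, 5.47, 5.31 and 5.27 in N1 erlotinib, and 5.23, 5.27 and 5.13 in NTC erlotinib. In DMSO it measured 5.92, 5.87 and 5.96 in N3 cells, 6.02, 6.04 and 5.93 in N1 cells, and 6.11, 6.05 and 6.03 in NTC cells. No erlotinib array reached a DMSO array. It fell by 0.66 in N3 cells, by 0.65 in N1 cells and by 0.85 in NTC cells (log2, standard error 0.06; highest adjusted p = 4.35e-08 from limma). No knockdown comparison called it.

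COL12A1 was the FACIT gene with the largest response. It measured 7.86, 8.02 and 7.98 in N3 erlotinib, 7.87, 7.97 and 7.96 in N1 erlotinib, and 7.74, 7.64 and 7.74 in NTC erlotinib. In DMSO it measured 6.20, 6.22 and 6.13 in N3 cells, 6.46, 6.57 and 6.60 in N1 cells, and 5.82, 5.92 and 6.16 in NTC cells. Both knockdowns were above NTC within erlotinib, and N1 was above the other 2 groups in DMSO, where N3 and NTC overlapped. The response was 1.77 in N3 cells, 1.39 in N1 cells and 1.74 in NTC cells (log2, standard error 0.07; highest adjusted p = 4.27e-11 from limma).

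COL12A1 was thus the member that stood higher with N1 than with NTC siRNA in DMSO, by 0.58 (adjusted p = 5.45e-05 from limma). Its response was smaller in N1 cells than in NTC cells by 0.35 (standard error 0.10, adjusted p = 0.0314), a call lost without replicate 1 or 2 of N1 erlotinib, 1 or 3 of NTC erlotinib, 2 or 3 of N1 DMSO, or 1 or 2 of NTC DMSO. In erlotinib it was higher than with NTC siRNA by 0.25 with N3 siRNA (adjusted p = 0.0218 from limma) and by 0.23 with N1 siRNA (adjusted p = 0.0319), and both calls were lost with arrays centered on their medians and without NTC erlotinib replicate 2. The call with N3 siRNA was also lost without N3 erlotinib replicate 5 or 6, and that with N1 siRNA without N1 erlotinib replicate 2 or 3 or NTC erlotinib replicate 1 or 3.

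COL21A1, another FACIT gene, measured 5.67, 5.69 and 5.67 in N3 erlotinib, 5.37, 5.26 and 5.24 in N1 erlotinib, and 5.35, 5.43 and 5.32 in NTC erlotinib. In DMSO it measured 5.11, 5.12 and 5.15 in N3 cells, 4.96, 5.00 and 4.94 in N1 cells, and 5.03, 5.09 and 5.05 in NTC cells. These DMSO levels lay near the array medians (4.84 to 5.01), though the feature exceeded its array's median on all 18 arrays. In erlotinib the N3 arrays stood above all others, opposite to collagen IV. It rose by 0.55 in N3 cells, 0.32 in N1 cells and 0.31 in NTC cells (log2, standard error 0.04; highest adjusted p = 6.60e-06 from limma). Within erlotinib it was higher by 0.31 with N3 than with NTC siRNA (adjusted p = 4.50e-05 from limma), and its response was larger by 0.24 with N3 siRNA (standard error 0.06, adjusted p = 0.0202), a call lost with each array centered on its median and without N3 erlotinib replicate 5, replicate 1 or 3 of NTC erlotinib, 1 or 2 of N3 DMSO, or 2 of NTC DMSO.

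**Figure D2:**
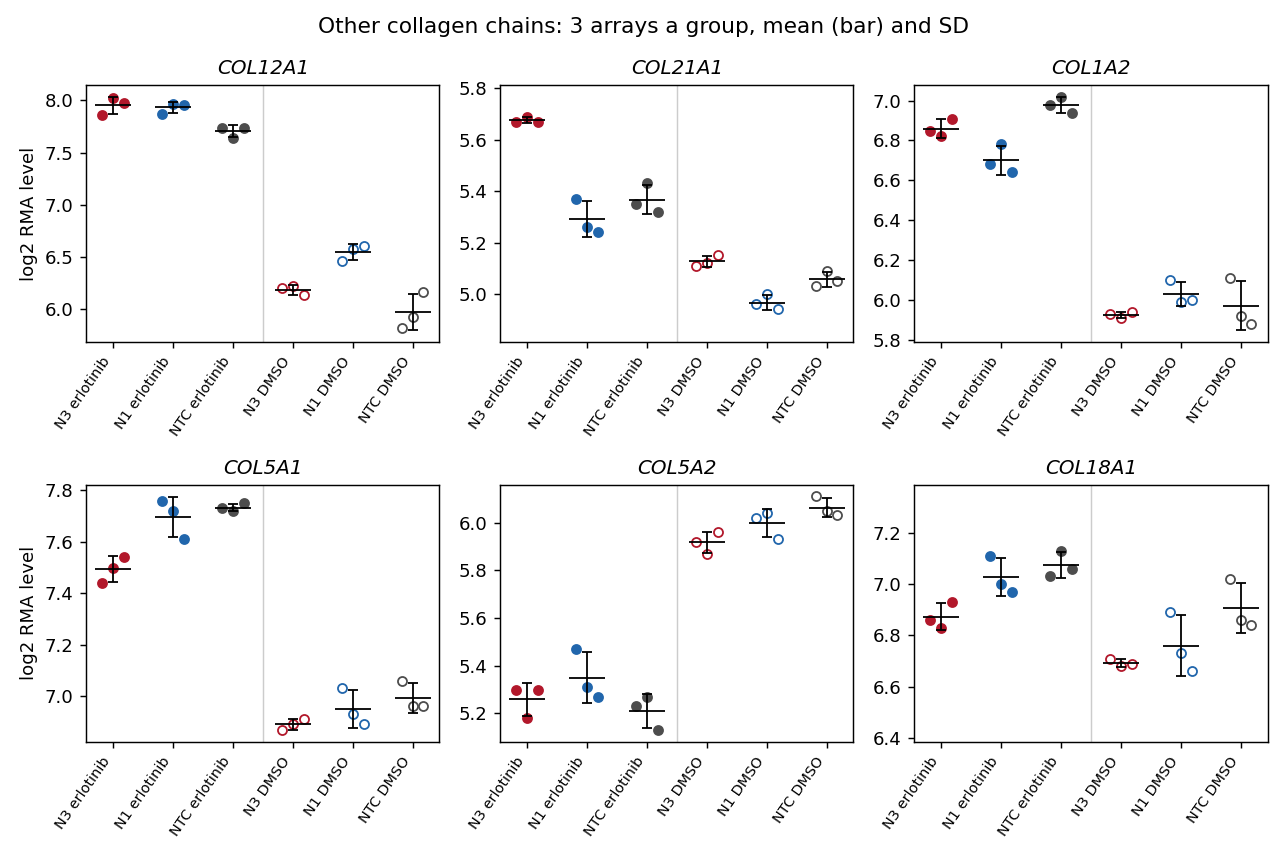
Log2 RMA levels of COL12A1, COL21A1, COL1A2, COL5A1, COL5A2 and COL18A1 on each array (points, filled for erlotinib and open for DMSO), with the group mean (bar) and SD over 3 arrays. COL5A2 is lower on every erlotinib array (5.13 to 5.47) than on every DMSO array (5.87 to 6.11), and COL21A1 is highest in N3 erlotinib.

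The other 23 tested genes were never called with a log2 fold change of 0.5 or more, and the largest difference among them in any comparison was 0.31. COL18A1, whose protein carries the endostatin fragment and lies in basement membranes, rose by 0.18 in N3 cells, 0.27 in N1 cells and 0.17 in NTC cells, and was lower with N3 than with NTC siRNA by 0.20 in erlotinib and 0.21 in DMSO (highest adjusted p = 0.0301 from limma). The DMSO call depended on single arrays, as given below. COL24A1 rose by 0.13 to 0.18 with each siRNA. COL6A1 rose by 0.18 in N3 cells and 0.31 in N1 cells, and its 0.12 in NTC cells was not called. A group of 9 genes (COL1A1, COL6A2, COL9A2, COL11A1, COL16A1, COL20A1, COL22A1, COL23A1 and COL25A1) was called higher in erlotinib in N1 cells and in no other, each by 0.17 to 0.24 on the log2 scale, and COL11A1 among them lay near the filter limit. No interaction between erlotinib and N1 siRNA was called for any of these 9. The median log2 fold change of all genes in N1 cells was 0.08 as deposited and -0.01 with each array centered on its median, where fewer collagen genes rose. How many of all genes were called higher in N1 cells alone was not counted. COL2A1, COL5A3, COL7A1, COL8A2, COL9A3, COL11A2, COL13A1, COL15A1 and COL27A1 were called in no comparison.

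**Figure D3:**
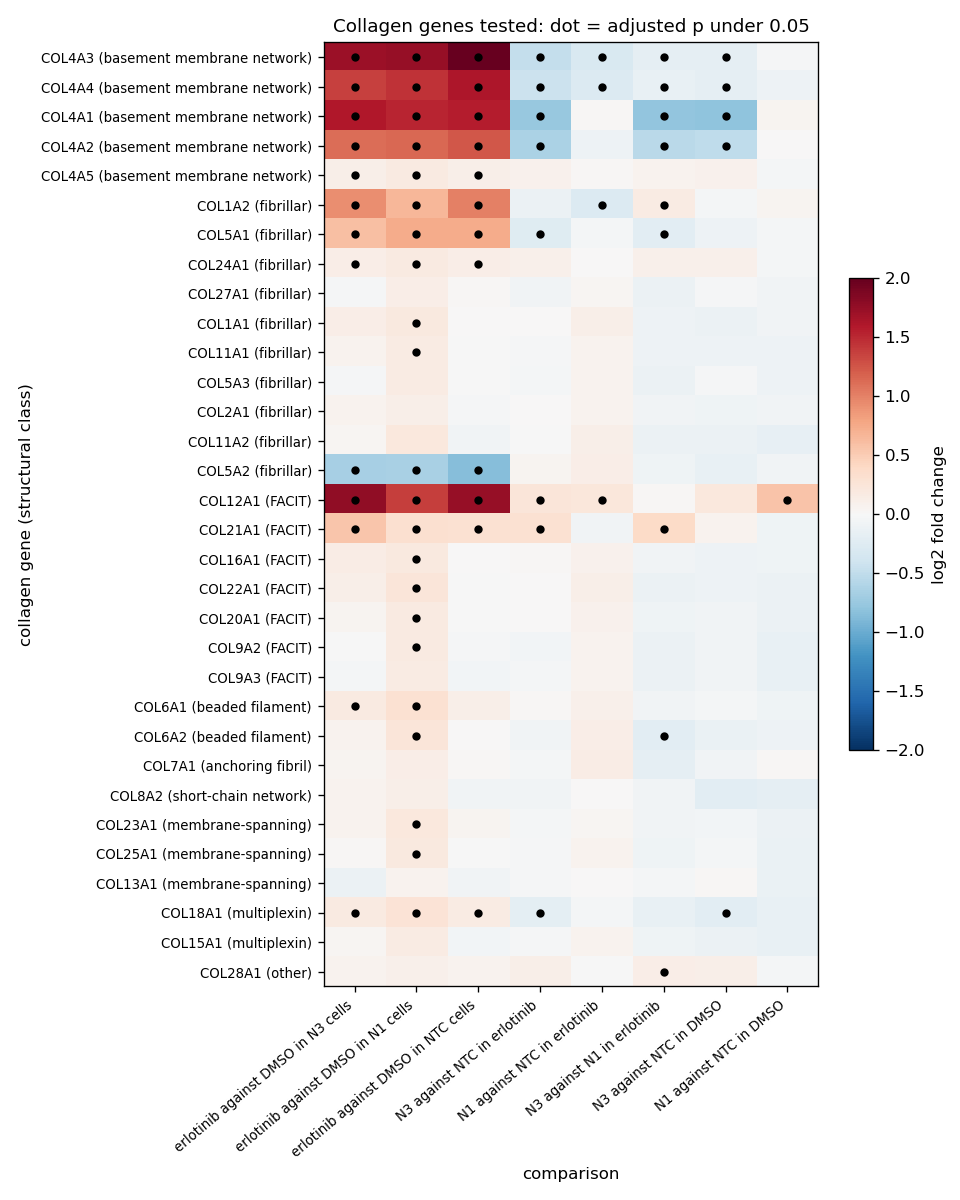
Log2 fold changes (color) of the 32 tested collagen genes, grouped by structural class (rows), in 8 comparisons (columns), with a dot where the adjusted p was under 0.05. COL4A1 to COL4A4 and COL12A1 carry the strongest rises with erlotinib, and COL4A1 and COL4A2 the strongest falls with N3 siRNA.

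Across the knockdown comparisons, which share arrays, the falls lay mostly in collagen IV. For N3 against NTC in erlotinib, 2 of 32 genes were higher and 6 lower, where 7.93% of all genes were higher and 10.5% lower. The 6 were COL4A1 to COL4A4, COL5A1 and COL18A1. Of the 2 higher genes, COL12A1 was lost without N3 erlotinib replicate 5 or 6 or NTC erlotinib replicate 2, and COL21A1 was not. For N3 against NTC in DMSO, 5 were lower and 0 higher (limma; 3 had an unadjusted p under 0.05), where 7.24% of all genes were higher and 4.8% lower. The 5 were COL4A1 to COL4A4 and COL18A1, and 3 were left when NTC DMSO replicate 1 or one of the N3 DMSO arrays was dropped. Those left were COL4A1, COL4A2 and COL4A4, so the call of COL18A1 was lost there as well as that of COL4A3. Without NTC DMSO replicate 3, 1 gene was higher (COL12A1). Of these DMSO calls, those of COL4A1 and COL4A2 held in every setting but the Methods' thresholds. That of COL4A3 was lost in 12 of 16 alternatives, each omission of 1 compared array included, and that of COL4A4 was lost with arrays centered on their medians and at the Methods' thresholds.

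For N1 against NTC in erlotinib, 1 gene was higher (COL12A1) and 3 were lower (COL1A2, COL4A3 and COL4A4), where 11.9% of all genes were higher and 9.15% lower. COL4A1 differed by 0.02 and COL4A2 by -0.10 there, neither called. For N1 against NTC in DMSO, COL12A1 alone was higher and 0 were lower (limma; 6 had an unadjusted p under 0.05), where 7.75% of all genes were higher and 6.97% lower. The same-numbered arrays of these groups deviated together, and with a replicate block over the 6 arrays COL12A1 stayed higher and 5 genes were lower (COL8A2, COL9A3, COL11A2, COL15A1 and COL18A1, by 0.14 to 0.19), where 10.1% of all genes were higher and 11.5% lower. Without N1 DMSO replicate 1 and with no block, 10 genes were lower.

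N3 against N1 within erlotinib set the knockdowns against each other. COL4A1 was lower by 0.79 and COL4A2 by 0.54 with N3 siRNA (adjusted p = 6.37e-09 and 1.46e-07 from limma). COL4A3, COL4A4, COL5A1 and COL6A2 were lower by 0.15 to 0.20, and COL21A1, COL1A2 and COL28A1 were higher by 0.13 to 0.39. These 3 higher and 6 lower genes compare with 13.8% and 20.9% of all genes. Without N3 erlotinib replicate 4, 3 genes stayed lower, and COL4A3 and COL4A4 were no longer called. Without N1 erlotinib replicate 1 or 3 or N3 erlotinib replicate 5, only 1 gene was higher. The call of COL1A2 was kept in 8 of 15 alternatives. It was lost without any 1 of the N3 erlotinib arrays and without N1 erlotinib replicate 1 or 3.

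The tests of the erlotinib responses called few members. The response in N3 cells minus that in NTC cells was higher for 1 gene (COL21A1) and lower for 2 (COL4A3 and COL4A4), where 1.63% of all genes were higher and 4.27% lower, and 0 were lower without N3 erlotinib replicate 4. The response in N1 cells minus that in NTC cells was lower for 3 (COL4A3, COL1A2 and COL12A1) and higher for 0 (limma; 8 had an unadjusted p under 0.05), where 6.04% of all genes were lower and 8.04% higher. Without N1 DMSO replicate 1, 10 were higher, and without NTC DMSO replicate 3 or N1 erlotinib replicate 3, 1 was. Dropping any of the 7 arrays named above for COL4A3 left 1 smaller response, that of COL1A2.

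Over the 6 group means, the pattern of COL4A1 was most like that of COL4A2 (Pearson r = 0.997), RHOB (0.997), ZNF704 (0.996), SYNPO (0.996), CXXC5 (0.995), MRTFA (0.995), SMARCD1 (0.994), BRI3 (0.994), DLX3 (0.993) and AFF3 (0.993). Among the other members, COL5A1 followed with r = 0.962 at rank 207 of the genes tested, then COL4A3 (0.941, rank 453) and COL4A4 (0.940, rank 465). The 6 points share the erlotinib and DMSO split, and these values are a description.

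Genes that modify, fold and export collagen chains were followed beside the members. Of 20 tested, 3 rose and 15 fell in erlotinib in N3 cells, 6 rose and 4 fell in N1 cells, and 3 rose and 13 fell in NTC cells, with a median log2 fold change of -0.39 in N3 cells (all genes 0.01), 0.01 in N1 cells (all genes 0.08) and -0.19 in NTC cells (all genes -0.02). Of all genes, 24.9% rose and 27.7% fell in N3 cells, 31.7% rose and 23.7% fell in N1 cells, and 24.6% rose and 25.4% fell in NTC cells, and the lists below are read against the same shares. P3H2, a prolyl 3-hydroxylase of collagen IV, measured 8.72, 8.73 and 8.76 in N3 erlotinib, 9.05, 9.08 and 9.13 in N1 erlotinib, and 9.04, 9.06 and 9.04 in NTC erlotinib, against 7.71, 7.68 and 7.59 in N3 DMSO, 7.97, 8.06 and 8.10 in N1 DMSO, and 7.99, 7.99 and 8.12 in NTC DMSO. As with COL4A1, the N3 arrays were lowest within each treatment. It rose by 1.08, 1.04 and 1.01 with N3, N1 and NTC siRNA (log2, standard error 0.05; highest adjusted p = 9.27e-12 from limma), and with N3 siRNA it was lower than with NTC siRNA by 0.31 in erlotinib and 0.37 in DMSO.

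P4HA2, a catalytic subunit of prolyl 4-hydroxylase, and MIA3, which helps load procollagen into vesicles, also rose with each siRNA. P4HA2 rose by 0.18, 0.37 and 0.13 with N3, N1 and NTC siRNA, and MIA3 by 0.21, 0.22 and 0.33. FKBP14, P4HA1, PLOD2 and SEC23A fell with each siRNA. P4HA1, another catalytic subunit of the enzyme, fell by 0.94, 0.47 and 0.58 with N3, N1 and NTC siRNA, and SEC23A, a coat protein of the vesicles that carry procollagen, fell by 0.51, 0.73 and 0.48. FKBP10, a collagen chaperone, was higher than in NTC cells by 0.43 with N3 and 0.76 with N1 siRNA in erlotinib, and by 0.61 with N3 siRNA in DMSO. CREB3L1, a transcription factor of secretory genes, was higher by 0.60 with N3 siRNA in DMSO. All of these were called.

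Of 15 tested genes of collagen processing and cross-linking, 5 rose and 4 fell in N3 cells, 6 rose and 4 fell in N1 cells, and 4 rose and 4 fell in NTC cells. Their median log2 fold change was 0.03 in N3 cells, 0.13 in N1 cells and -0.05 in NTC cells, where all genes had 0.01 in N3 cells, 0.08 in N1 cells and -0.02 in NTC cells. LOX, the lysyl oxidase that starts cross-links, measured 9.20, 9.21 and 9.29 in N3 erlotinib, 9.26, 9.36 and 9.49 in N1 erlotinib, and 9.56, 9.48 and 9.53 in NTC erlotinib, against 7.57, 7.56 and 7.52 in N3 DMSO, 7.37, 7.46 and 7.59 in N1 DMSO, and 7.33, 7.35 and 7.45 in NTC DMSO. It rose by 1.68, 1.90 and 2.15 with N3, N1 and NTC siRNA (log2, standard error 0.06; highest adjusted p = 2.90e-13 from limma). ADAMTS3, a procollagen N-proteinase, was called lower with each siRNA, but it exceeded the median on 10 arrays only and passed the filter mainly through the DMSO groups. It stood at 4.57 to 4.98 in the erlotinib groups, about the array medians (4.84 to 5.01), and at 5.27 to 6.26 in the DMSO groups, so no fold is given. SPARC, a collagen-binding matrix protein, was higher with N3 than with NTC siRNA by 0.34 in erlotinib and 0.78 in DMSO, where COL4A1 was lower. It averaged 9.55 in N3, 9.70 in N1 and 9.21 in NTC erlotinib, against 9.41, 8.75 and 8.63 in DMSO. Within erlotinib it was thus highest with N1 siRNA, and it was higher in erlotinib than in DMSO with each siRNA, as was COL4A1.

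Of 8 tested collagen receptors, ITGA11, the alpha chain of a fibrillar collagen integrin, was the lowest of all 16335 genes for N3 against NTC in erlotinib. It measured 5.69, 5.54 and 5.59 in N3 erlotinib, 6.38, 6.44 and 6.28 in N1 erlotinib, and 7.56, 7.32 and 7.47 in NTC erlotinib, against 5.48, 5.48 and 5.52 in N3 DMSO, 5.54, 5.50 and 5.41 in N1 DMSO, and 5.66, 5.55 and 5.53 in NTC DMSO. In erlotinib the 3 groups stood apart, and in DMSO the N1 group overlapped both others. It rose by 1.87 in NTC cells and 0.88 in N1 cells, and was lower than in NTC erlotinib by 1.84 with N3 and by 1.08 with N1 siRNA (standard error 0.06; highest adjusted p = 7.83e-09 from limma). ITGA1, another collagen-binding alpha chain, was higher by 1.18 with N3 than with NTC siRNA in DMSO, but exceeded the median on 10 arrays only and lay at 4.62 to 5.04 in the erlotinib groups. ITGA2 fell in erlotinib by 1.34, 1.14 and 1.52 with N3, N1 and NTC siRNA. GP6, also on this list, averaged 6.61 in N3, 6.38 in N1 and 6.55 in NTC erlotinib, against 5.84, 5.93 and 6.03 in DMSO. Of the 8 receptors, 1 rose and 3 fell in erlotinib in N3 cells, 4 rose and 3 fell in N1 cells, and 3 rose and 3 fell in NTC cells.

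Of 7 tested basement membrane partners of collagen IV, 3 rose and 1 fell in erlotinib in N3 cells, 5 rose and 1 fell in N1 cells, and 5 rose and 2 fell in NTC cells. Their median log2 fold change was 0.09 in N3 cells (all genes 0.01), 0.44 in N1 cells (all genes 0.08) and 0.33 in NTC cells (all genes -0.02). In NTC cells LAMB1, HSPG2, AGRN, FN1 and TINAGL1 rose, and LAMC1 and NID1 fell. NID1, which links laminin to collagen IV, fell by 0.73, 0.75 and 0.90 with N3, N1 and NTC siRNA. LAMB1, a laminin beta chain, was lower than in NTC cells by 0.42 with N3 and 0.52 with N1 siRNA in erlotinib. FN1, fibronectin, was higher with N3 than with NTC siRNA by 1.31 in erlotinib and 1.59 in DMSO, while TINAGL1 was lower by 0.54 in erlotinib, all called.

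**Figure D4:**
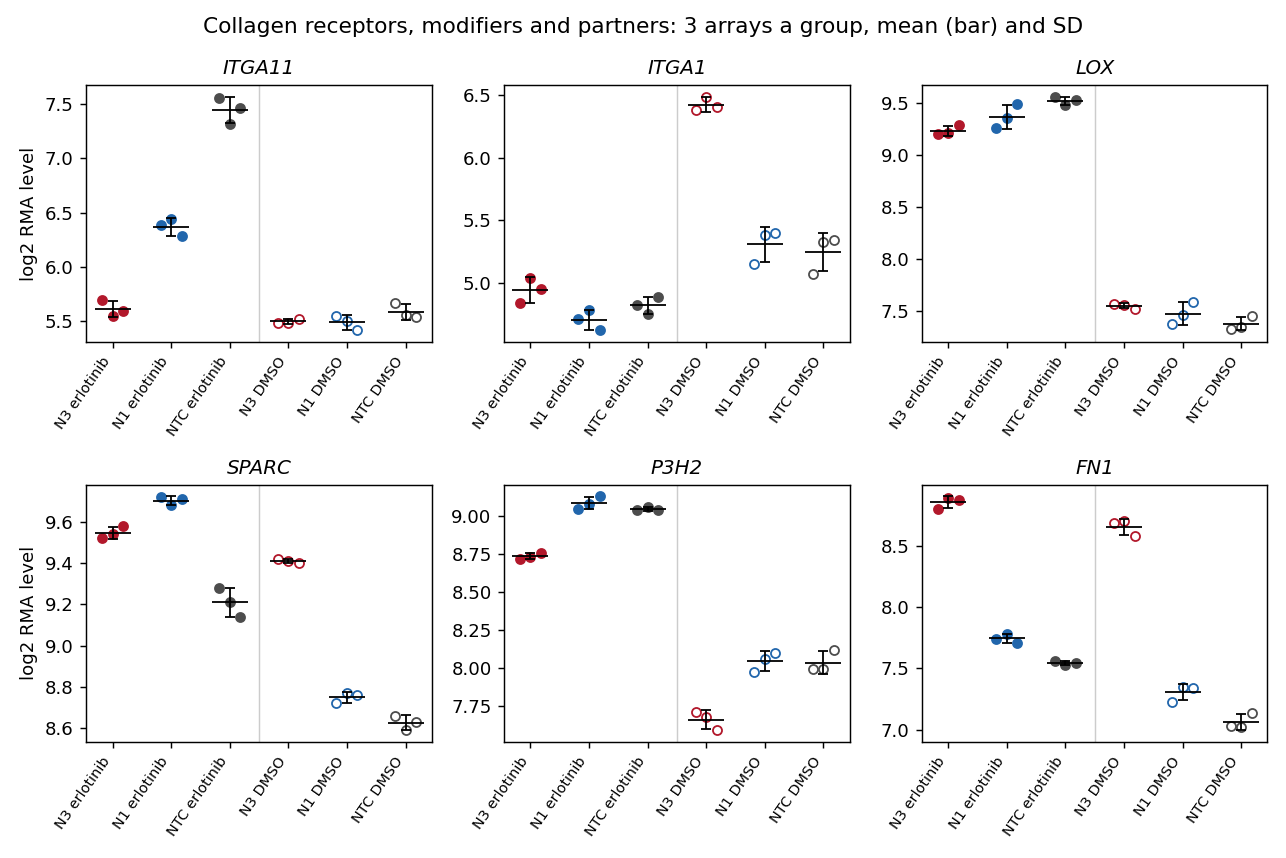
Log2 RMA levels of the receptor chains ITGA11 and ITGA1, the lysyl oxidase LOX, the matrix proteins SPARC and FN1, and the prolyl 3-hydroxylase P3H2 on each array (points, filled for erlotinib and open for DMSO), with the group mean (bar) and SD over 3 arrays. ITGA11 is high in NTC erlotinib (7.32 to 7.56) and near its DMSO level in N3 erlotinib (5.54 to 5.69), and FN1 is high in both N3 groups.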

How the data were processed

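Total RNA was hybridized to GeneChip Human Transcriptome Array 2.0. The authors quantified the arrays with Affymetrix Expression Console, corrected background, normalized between arrays and summarized each feature by RMA, and the deposited values are log2 levels with 2 decimals, not centered per gene. For the RMA version and the annotation's build, the sources used here give nothing. Because between-array normalization had been applied before deposition, a shift shared by most genes of a group could not be measured.

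A feature was tested if it named 1 gene and lay above its array's median (percentile 50) on at least 3 arrays. The feature with the highest mean over the 18 arrays stood for each gene, which left 16335 genes. R 4.3.3 and limma 3.58.1 (lmFit, contrasts.fit, eBayes) estimated 6 group means over all 18 arrays for 10 comparisons, without a replicate block. A gene was called at a Benjamini-Hochberg adjusted p under 0.05 over all genes tested. Calls by the study's Methods (p under 5e-04 before adjustment, with at least a 2-fold change) were counted beside it. The script was tested on simulated data.

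Every collagen gene was named once. Values per array were given for members called with an absolute log2 fold change of at least 0.5 in any comparison. The rule for the 4 lists was up to 3 genes per comparison, those with the largest change among the called ones. It was not met throughout, so some genes with larger changes are not named, and other genes were named after their values were seen. The members, lists and rules were chosen with earlier results of these data known. Promoter sequence was taken from RefSeq (GRCh38.p14).

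Same-numbered arrays of N1 DMSO and NTC DMSO deviated together from their group means (correlations 0.69, 0.24 and 0.49). No source states a pairing, so a block by replicate number was used only as an alternative. Every other pair of groups numbered 1 to 3 had at least 1 correlation not over 0.1. The 18 arrays held no identical pair. The alternatives tried were a filter limit at the 75th percentile, a filter on the mean over all arrays, no filter, the mean of a gene's features, the Methods' thresholds, only the compared arrays, quantile normalization, arrays centered on their medians, a trended and robust prior, replicate blocks over 15 and over 6 arrays (the latter added after the data were seen), and each array left out in turn.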

Additional observations from a re-analysis of the deposited data

Results flagged for a closer look

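For 6 results the response to erlotinib differed with a knockdown by a test of the difference itself (an interaction term in limma over all genes tested). With N3 siRNA the response was smaller than in NTC cells for COL4A3 (log2 difference -0.31, standard error 0.07, adjusted p = 0.0190) and COL4A4 (-0.24, standard error 0.06, adjusted p = 0.0270), and larger for COL21A1 (0.24, standard error 0.06, adjusted p = 0.0202). With N1 siRNA it was smaller for COL12A1 (-0.35, standard error 0.10, adjusted p = 0.0314), COL1A2 (-0.34, standard error 0.08, adjusted p = 0.0122) and COL4A3 (-0.28, standard error 0.07, adjusted p = 0.0245). Each gene still responded in the same direction with every siRNA. With N1 siRNA the call was kept in 21 of 22 alternatives for COL1A2, 12 of 22 for COL4A3 and 11 of 22 for COL12A1. With N3 siRNA it was kept in 19 of 21 for COL4A3, 14 of 21 for COL4A4 and 10 of 20 for COL21A1. In DMSO COL12A1 was higher with N1 than with NTC siRNA, by 0.58, while COL1A2 differed there by 0.06 and COL4A3 by -0.02. The NTC arrays enter all 6 differences, and the N3 erlotinib arrays, which carry other numbers, enter those with N3 siRNA.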

How the results depend on the processing

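For the 9 collagen genes called at a log2 fold change of 0.5 or more, 62 log2 fold changes were recomputed under 1004 alternatives (the other members were followed only through the counts): 889 kept direction and call, 105 lost the call, 10 gained one and 0 reversed. The counts of collagen genes moved by more than 1.5 times as follows. With the limit at the 75th percentile, 12 rose in erlotinib in N1 cells, 0 fell with any siRNA because COL5A2 was not tested, 1 was higher for N3 against NTC in erlotinib, for N3 against N1 in erlotinib and for N3 against NTC in DMSO, and 0 responses were larger in N3 cells. At the Methods' thresholds 6 rose in NTC cells and 5 each in N1 and N3 cells, and every other count was 0. With only the compared arrays, 2 fell in erlotinib in N3 cells, 3 were lower for N3 against NTC in DMSO and 1 response was smaller in N1 cells. With quantile normalization, 2 fell in N3 cells, 2 were higher for N1 against NTC in erlotinib, 10 were lower for N3 against N1 in erlotinib, 3 were higher for N3 against NTC in DMSO and 0 responses were larger in N3 cells. With arrays centered on their medians, 11 rose in N1 cells, 2 fell in N3 cells, 1 was higher for N3 against NTC and 0 for N1 against NTC in erlotinib, 3 were lower for N3 against NTC in DMSO, 0 responses were larger in N3 cells and 1 was smaller in N1 cells. With the trended and robust prior, 1 was higher for N3 against NTC in DMSO and 0 responses were larger in N3 cells. Apart from the changes that a lower number of genes or arrays brings by itself, the cause was not tested.

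The replicate block over the 6 arrays of N1 DMSO and NTC DMSO, an alternative chosen after seeing the data, gave 5 genes lower for N1 against NTC in DMSO. The replicate block over 15 arrays moved no count by more than 1.5 times and lost the call of COL4A3 for N3 against NTC in DMSO. No paired analysis was possible for comparisons with N3 erlotinib because its arrays carry other numbers.

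Leaving out 1 array at a time gave these ranges. Rises in erlotinib were 8 to 13 in N3 cells, 15 to 28 in N1 cells and 8 to 12 in NTC cells, with 1 fall each. For N3 against NTC in erlotinib, 1 to 2 were higher and 5 to 6 lower. For N1 against NTC in erlotinib, 0 to 1 were higher and 3 lower. For N3 against N1 in erlotinib, 1 to 3 were higher and 3 to 7 lower. For N3 against NTC in DMSO, 0 to 1 were higher and 3 to 4 lower. For N1 against NTC in DMSO, 1 was higher and 0 to 10 lower. Responses in N3 cells were larger for 0 to 1 and smaller for 0 to 2, and responses in N1 cells larger for 0 to 10 and smaller for 1 to 3. The falls of COL4A1 and COL4A2 with N3 siRNA were called in every alternative except the Methods' thresholds.

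The precision is limited by 3 arrays a group. The log2 SD within groups had a median of 0.06 over the 41 genes, and changes of low features are compressed toward 0.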
